A study of Mus musculus with 6 samples.

Results

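The replication-dependent histone genes were followed in the ductus arteriosus (DA) of mouse embryos. They were taken as every gene whose symbol begins with Hist1h, Hist2h, Hist3h or Hist4h, which gave 68 of the 23997 genes in the table. By symbol, 6 encode the linker histone H1, 18 encode H2A, 19 encode H2B, 12 encode H3, and 13 encode H4. One of them, Hist3h2bb-ps, is annotated as a processed pseudogene. The DA is the fetal artery between the pulmonary artery and the aorta, and its wall is built largely of smooth muscle cells (SMCs).

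Bulk RNA-Seq was carried out at E17.5 on C57BL/6 mice that received no treatment. The 3 WT libraries, WT0 to WT2, came from wild type embryos, and the 3 KO libraries, KO0 to KO2, came from littermates of genotype Prdm6f/f; SM22-Cre. In the latter, floxed alleles of Prdm6, which encodes a histone methyltransferase, are recombined by a Cre that the SM22 promoter drives in SMCs, so other cells of the dissected artery keep the gene. Whether each library came from its own embryo or from a pool is not stated, and the group size named in the study differs from the number of libraries in the table. The p-values here therefore measure the spread between these libraries. The comparison asked whether the histone genes differed when Prdm6 was disrupted in SMCs, and how their levels compared with those of proliferation genes and short RNAs.

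Replication-dependent histones are made mainly in S phase, when new DNA has to be packed into nucleosomes. Their genes lie in clusters and mostly lack introns. Most of their mRNAs do not end in a poly(A) tail but in a short stem-loop, which is bound by the stem-loop binding protein SLBP and formed by a cut directed by the U7 small nuclear RNP. Some members, such as Hist1h1c and Hist2h2be, are also known to give polyadenylated transcripts in cells that no longer divide. Whether the libraries were selected for poly(A) is not given in the sources used here. The RNA was labelled as total RNA and was isolated with a kit that keeps small RNAs.

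The stem-loop was looked for in the GENCODE vM21 transcripts, on the GRCm38 build that mm10 stands for. All 68 genes matched that annotation by symbol, and 63 had a single exon in their longest model. The letters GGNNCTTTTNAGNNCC were searched on the transcript strand after the stop codon. They were found in 44 of the 68 histone genes, 21 to 58 bases after the stop codon, with a median of 31. Of 21810 coding genes with other names, 28 held the same letters anywhere in a coding transcript, or 0.128%. Of the 24 histone genes without a match, 13 have a model that ends at the stop codon, so no match there describes the model only.

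The following stretches are shown because they carry the feature that sets these mRNAs apart, and because they belong to members described below. Each holds 26 bases of the transcript strand, 5′ to 3′, with the 16 bases of the stem-loop in capitals.

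Hist1h1c (chr13:23739507-23739532, + strand): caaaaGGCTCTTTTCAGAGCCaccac
Hist2h2ac (chr3:96220413-96220438, - strand): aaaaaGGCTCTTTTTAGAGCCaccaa
Hist1h2be (chr13:23585526-23585551, - strand): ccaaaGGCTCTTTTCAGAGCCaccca
Hist1h3b (chr13:23752815-23752840, + strand): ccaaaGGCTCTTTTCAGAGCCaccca
Hist1h3c (chr13:23745042-23745067, - strand): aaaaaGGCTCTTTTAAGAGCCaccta
Hist1h4d (chr13:23581945-23581970, + strand): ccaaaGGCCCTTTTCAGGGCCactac
Hist2h4 (chr3:96262934-96262959, - strand): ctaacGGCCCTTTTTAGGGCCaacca
Hist1h4j (chr13:21735432-21735457, + strand): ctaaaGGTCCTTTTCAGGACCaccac

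In all 44 genes the 6 bases on either side of the loop can pair. The letters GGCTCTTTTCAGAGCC, seen above in Hist1h1c, Hist1h2be and Hist1h3b, occurred in 26 genes of the H1, H2A, H2B and H3 classes and in no H4 gene. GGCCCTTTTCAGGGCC, as in Hist1h4d, occurred in 7 genes, all of the H4 class. Hist1h3c represents 6 genes with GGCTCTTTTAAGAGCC. Hist2h4 and Hist1h4j stand for 2 genes each, again of the H4 class, and the variant of Hist2h2ac occurred in that gene alone. In 22 of the 44 genes the model runs more than 100 bases past the stem-loop. Hist1h4d is one of these, with 770 bases after it, on chr13:23581598-23582735 (+ strand).

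The genes lie in 5 stretches of the genome. Chromosome 13 holds 23 of them between 21715763 and 22043676 and 31 between 23531050 and 23934851. Another 10 lie on chromosome 3 between 96219865 and 96270132. The 3 Hist3h genes are on chromosome 11 between 58948920 and 58956830, and Hist4h4 is on chromosome 6 between 136801553 and 136804415.

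Many members resemble each other closely, which bears on how reads can be shared out among them. The share of each gene's 45-base words that also occur in another histone gene was computed, 45 bases being the shortest read the authors kept. Its median was 47.9%, with 4 genes sharing no word and 6 genes sharing over 90%. In 33 genes 50% or more of the words were shared. All 484 words of Hist2h2aa2 occur in Hist2h2aa1, and the level of either copy is uncertain. Hist1h2be shared 10.2% of its words with Hist1h1e, which it overlaps on the same strand. Hist2h2bb shared no word with another histone gene, but all its words occur in Gm20628, an antisense gene that overlaps it, and strand use in the counting is not stated. Counting words found in any annotated gene, 37 genes shared 50% or more, among them Hist2h2ab with 65.2% and Hist2h2ac with 57.6%.

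Some libraries stood apart before any comparison. WT2 had the most genes listed at 0, 11886 against 8338 to 10313 in the other 5 libraries, and also the most zeros among 3506 abundant genes, 61 against 34 to 45. Small RNA genes took 7.96% to 31.1% of all FPKM in WT and 15.4% to 58.4% in KO. KO0 held both Xist and the Y-linked Ddx3y, at 81.0 and 26.4 FPKM. Heart muscle genes summed to 1736 FPKM in WT1 and 2035 FPKM in KO2 but to 70.5 to 659 FPKM in the others. Prdm6 itself was listed at 41.7, 48.4 and 19.8 FPKM in WT0 to WT2 and at 48.6, 27.1 and 15.4 FPKM in KO0 to KO2. These ranges overlap, so the gene-level value of Prdm6 does not test the labels. All 11 smooth muscle markers were above 0 in each library, with Acta2 between 396 and 2262 FPKM.

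By listed FPKM, the histone genes were among the more abundant transcripts of the DA. FPKM counts fragments per length of transcript and per mapped fragments of the library. A comparison between genes thus depends on the transcript models and on how shared reads were assigned, and neither is known here. A total of 25 histone genes had a mean of at least 100 FPKM over the 6 libraries and 44 had at least 20 FPKM. The 57 that passed the filter, a mean of at least 1 FPKM, had a median level of 63.1 FPKM against 9.65 FPKM for all 12955 genes that passed it. The 11 others included 5 listed at 0 in every library, namely Hist1h2aa, Hist1h2ao, Hist1h2bq, Hist1h2br and Hist1h4n. The other 6 were Hist1h2ap, Hist1h2ba, Hist2h2aa1, Hist2h2aa2, Hist2h3c1 and Hist2h3c2, with mean levels of 0.675 FPKM or less. Genes used by every cell are also listed at 0 in these files, so a 0 is only a listed value.

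Levels ran over a wide range within each class, as the plot of every tested member by library shows. Hist2h2bb was the highest of all, ranked 22nd among all genes, at 2838, 2031 and 1410 FPKM in WT0 to WT2 and 1578, 1940 and 1356 FPKM in KO0 to KO2. Among the H1 genes, which bind the linker DNA between nucleosomes, Hist1h1c averaged 869 FPKM, Hist1h1e 811 FPKM and Hist1h1d 573 FPKM. Among the H2A genes, Hist2h2ac averaged 812 FPKM, Hist1h2af 718 FPKM and Hist1h2ak 352 FPKM. The next H2B genes, Hist1h2be and Hist1h2bn, averaged 188 and 169 FPKM. The H3 genes were led by Hist1h3b at 436 FPKM, followed by Hist1h3c at 158 FPKM and Hist1h3d at 154 FPKM. The H4 genes were led by Hist1h4d at 337 FPKM, ahead of Hist1h4h at 169 FPKM and Hist1h4c at 152 FPKM. In each of these orders the ranges of neighbouring genes over the 6 libraries overlapped, except those of Hist2h2bb and Hist1h2be. Within each single library, Hist1h1e also lay above Hist1h1d and Hist1h3b above Hist1h3c.

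**Figure D1:**
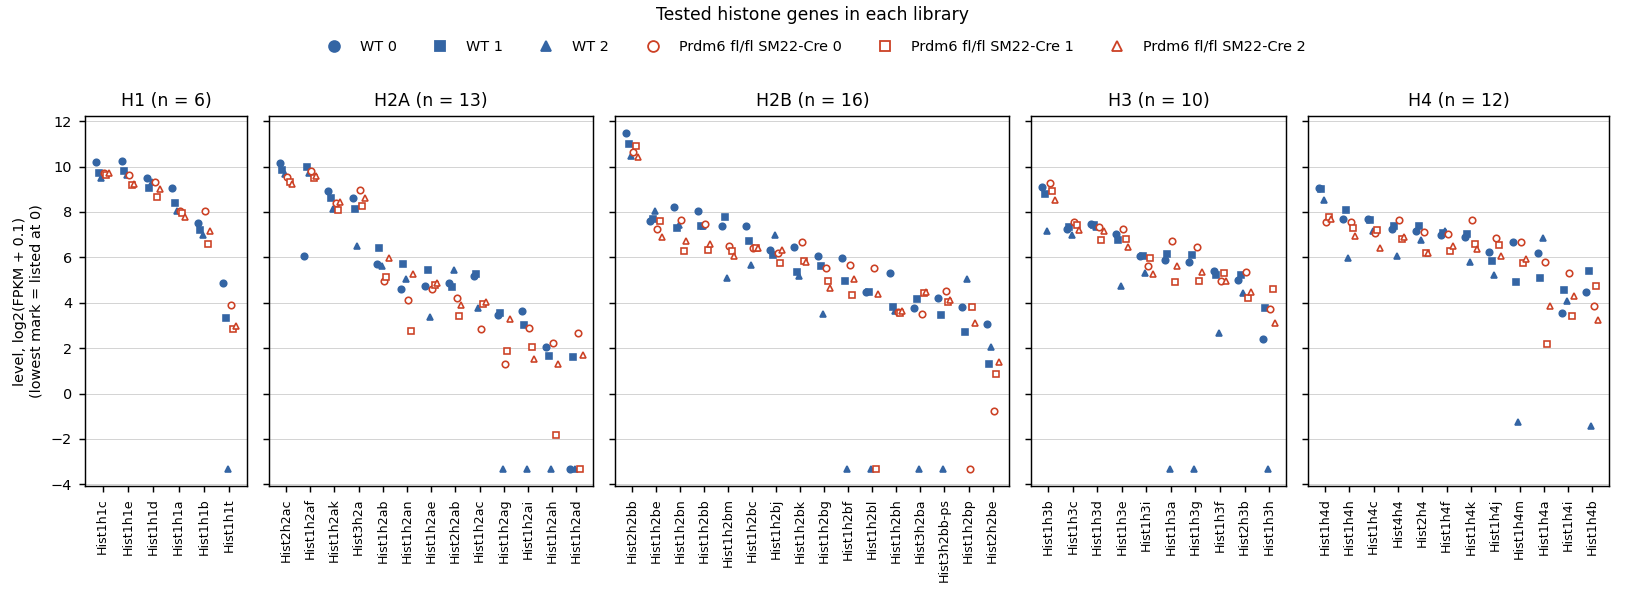
Level of each of the 57 tested histone genes, as log2(FPKM + 0.1) on the vertical axis, in the 3 WT libraries (filled) and the 3 Prdm6 fl/fl SM22-Cre libraries KO0 to KO2 (open), by histone class. Most genes show 6 marks close together, while the lowest marks, values listed at 0, are mostly the filled triangles of WT2, where 12 tested members were at 0.

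No histone gene differed between the groups past an adjusted p of 0.05 in limma. The smallest adjusted p in limma was 0.298, for Hist1h4d, and 1 of the 12955 genes tested (0.00772%) passed, the ribosomal RNA precursor Rn45s. Rn45s was listed at 0 in WT0 to WT2 and at 3060, 3806 and 4520 FPKM in KO0 to KO2. The cause of this pattern was not tested. Lower values in KO were seen for 29 histone genes and higher values for 28. The median log2 fold change (KO over WT) of the 57 tested histone genes was -0.0067, against 0.072 for all tested genes. Single histone genes had a median standard error of 0.48, and all tested genes one of 0.41. At an unadjusted p of 0.05, limma found 7 histone genes lower, or 12.3%, where 4.97% of all tested genes were lower. In the other direction it found 1 histone gene, where 3.31% of all tested genes were higher.

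The groups did not overlap for 4 histone genes, all lower in KO, where the share of all tested genes with this pattern was 7.84%. None was higher without overlap, where the share of all tested genes was 8.21%. The 4 genes lie near that background share. They are described next, and each reached p = 0.1 in the exact permutation test (two-sided, n = 3 per group). This is the smallest p that the test can give with 3 libraries against 3, and groups that do not overlap always reach it.

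Hist1h4d, which encodes the core histone H4, was listed at 528, 516 and 365 FPKM in WT0 to WT2 and at 188, 216 and 209 FPKM in KO0 to KO2. All 3 KO libraries lay below the lowest WT library, and they lay closer together than the WT libraries did. The means were 470 ± 90.5 and 204 ± 14.96 FPKM (SD, n = 3 each). The log2 fold change was -1.18 with a standard error of 0.20, and the adjusted p in limma was 0.298. Leaving out 1 library at a time kept it between -1.36 and -1.09. Only 11.5% of its 45-base words occur in another histone gene.

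Hist2h2ab, an H2A gene on chr3:96219865-96220308 (+ strand), was listed at 29.4, 25.5 and 43.1 FPKM in WT0 to WT2 and at 18.3, 10.6 and 15.01 FPKM in KO0 to KO2. The highest KO library lay below the lowest WT library, WT1. The log2 fold change was -1.15 with a standard error of 0.29 (adjusted p = 0.463 in limma).

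Hist2h2ac, whose stem-loop letters were shared with no other member, lies next to it on the other strand. It was listed at 1136, 936 and 814 FPKM in WT0 to WT2 and at 746, 632 and 609 FPKM in KO0 to KO2. The groups were separated by the gap between WT2 and KO0, which is smaller than the spread within either group. The log2 fold change was -0.53 with a standard error of 0.21 (adjusted p = 0.591 in limma).

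Hist1h2be, an H2B gene, was listed at 196, 206 and 261 FPKM in WT0 to WT2 and at 153, 194 and 120 FPKM in KO0 to KO2. WT0 and KO1 were nearly equal, so the groups only just failed to overlap. The log2 fold change was -0.52 with a standard error of 0.22 (adjusted p = 0.600 in limma).

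The other 4 genes with an unadjusted p under 0.05 are named after their values were seen, and in each of them the groups overlapped. Hist1h4a was listed at 72.6, 33.9 and 117 FPKM in WT and at 56.1, 4.45 and 14.4 FPKM in KO. Hist1h2ac was at 36.1, 38.1 and 13.6 FPKM in WT and at 7.11, 15.1 and 16.1 FPKM in KO, and WT2 lay within the KO range. Hist1h2bb, at 266, 164 and 166 FPKM in WT and 178, 80.1 and 95.2 FPKM in KO, overlapped through KO0. The 1 gene with a higher value, Hist1h4j, was at 74.6, 56.6 and 36.8 FPKM in WT and at 115, 92.1 and 65.8 FPKM in KO. Their adjusted p in limma lay between 0.591 and 0.600.

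The most abundant member of each class other than those above had overlapping groups. Hist1h1c was listed at 1167, 845 and 714 FPKM in WT and at 854, 787 and 849 FPKM in KO, a log2 fold change of -0.10 with a standard error of 0.24. Hist1h1e, at 1222, 893 and 784 FPKM in WT and 789, 582 and 594 FPKM in KO, overlapped only through WT2 and KO0. Hist1h3b was at 551, 446 and 145 FPKM in WT and at 619, 486 and 370 FPKM in KO. Its low WT value was that of WT2, and the log2 fold change of 0.55 became -0.043 without that library. Hist1h2af was listed at 66.3 FPKM in WT0 but at 1023 and 839 FPKM in WT1 and WT2 and at 890, 720 and 767 FPKM in KO. Without WT0 its log2 fold change of 1.04 became -0.23. In this gene 81.4% of the 45-base words are shared with another member.

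Of the testis-specific members, Hist1h1t passed the filter with a mean of 11.5 FPKM, and the others were low or at 0. Hist1h1t, the testis H1, was listed at 29.1, 9.99 and 0 FPKM in WT and at 14.99, 6.99 and 7.68 FPKM in KO. Hist1h2ba, a testis H2B, was above 0 in WT0 and KO0 only, at 2.15 and 0.550 FPKM, and Hist1h2aa was at 0 throughout. The groups of Hist1h1t overlapped over their whole range.

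**Figure D2:**
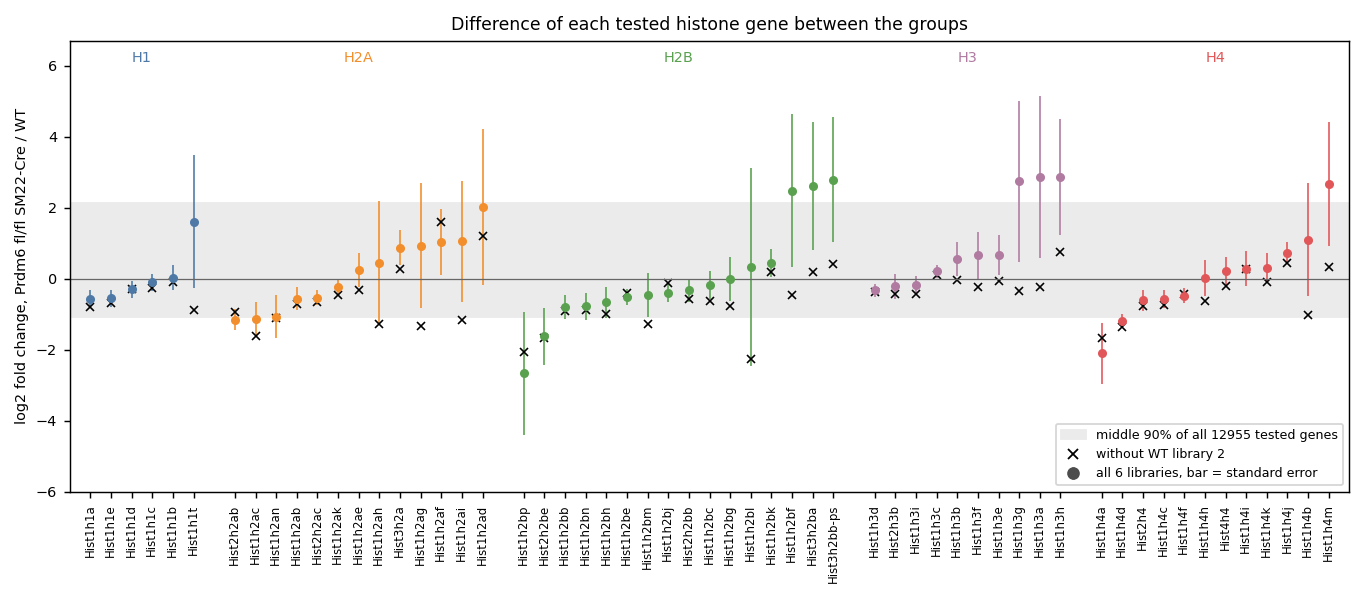
Log2 fold change (Prdm6 fl/fl SM22-Cre over WT, vertical axis) of the 57 tested histone genes by class, with bars for the standard error and crosses for the fit without WT2; the grey band holds the middle 90% of all tested genes. Without WT2 the crosses of the genes with the longest bars mostly lie lower, and the median moves from -0.0067 to -0.45.

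By class, the median log2 fold change was -0.20 for 6 H1 genes, 0.24 for 13 H2A genes, -0.36 for 16 H2B genes, 0.60 for 10 H3 genes and 0.12 for 12 H4 genes. Leaving out 1 library at a time gave -0.49 to -0.048 for H1, -0.72 to 0.70 for H2A, -0.71 to -0.11 for H2B, -0.23 to 1.003 for H3 and -0.53 to 0.45 for H4. Without WT2 all 5 medians were below 0, at -0.49, -0.72, -0.71, -0.23 and -0.53 in the same order. The H2A median also fell below 0 without WT0 (-0.060) or without KO0 (-0.28), and the H4 median without KO0 (-0.17). The summed level of each class showed overlapping groups. The H1 genes summed to 3046 ± 712 FPKM in WT and 2420 ± 360 FPKM in KO, and the H2B genes to 3271 ± 1019 and 2479 ± 326 FPKM (SD, n = 3 each). The H3 genes summed to 994 ± 408 FPKM in WT and 1159 ± 266 FPKM in KO, where WT2 alone was at 525 FPKM. For all 68 genes the sums were 13499, 11770 and 8650 FPKM in WT0 to WT2 and 11037, 8987 and 8610 FPKM in KO0 to KO2. WT2 thus lay with the lower KO libraries, and the ratio of the group means was 0.844, 0.755 without WT2 and 0.935 without WT0.

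WT2 carried much of the scatter. It had 21 of the 68 members at 0, where the other libraries had 9 to 11, and it was the lowest library for 27 of the 57 tested members. At 0 in WT2 alone were 10 tested members: Hist1h1t, Hist1h2ag, Hist1h2ah, Hist1h2ai, Hist1h2bf, Hist1h3a, Hist1h3g, Hist1h3h, Hist3h2ba and Hist3h2bb-ps. For these the fitted fold change depends on the pseudocount. Without WT2, limma still called 0 histone genes past the adjusted threshold. Then 14 were lower at an unadjusted p of 0.05 and 0 were higher, beside 4.22% and 3.71% of all genes, and 20 lay lower without overlap, beside 13.02% of all genes tested in that fit. Their median log2 fold change was then -0.45, against 0.012 for all genes. Leaving out WT0 instead gave 2 lower and 5 higher at an unadjusted p of 0.05, beside 4.03% and 3.21% of all genes, and a median of 0.096. The balance of lower and higher histone genes thus differed with the WT library left out.

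The 32 tested genes with under 50% of their words shared differed by a median of -0.40 on the log2 scale, with 21 lower and 11 higher and a median standard error of 0.34. The 25 tested genes that shared 50% or more had a median of 0.55, with 8 lower and 17 higher and a median standard error of 0.66. Without WT2 both medians were below 0, at -0.63 and -0.44, and 20 of the 25 more shared genes had lower values. All 8 genes with an unadjusted p under 0.05 belonged to the less shared kind. Where words in any annotated gene were counted, a choice made after the data were seen, 6 of the 8 did, and the medians were -0.33 (29 tested) and 0.44 (28 tested). The zeros of WT2 lay mostly among the genes sharing more with other histone genes, 16 of 33 against 5 of 35. The zeros of every other library did as well, at 6 to 9 of 33 against 2 to 3 of 35. The part of read assignment in these values was not tested.

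**Figure D3:**
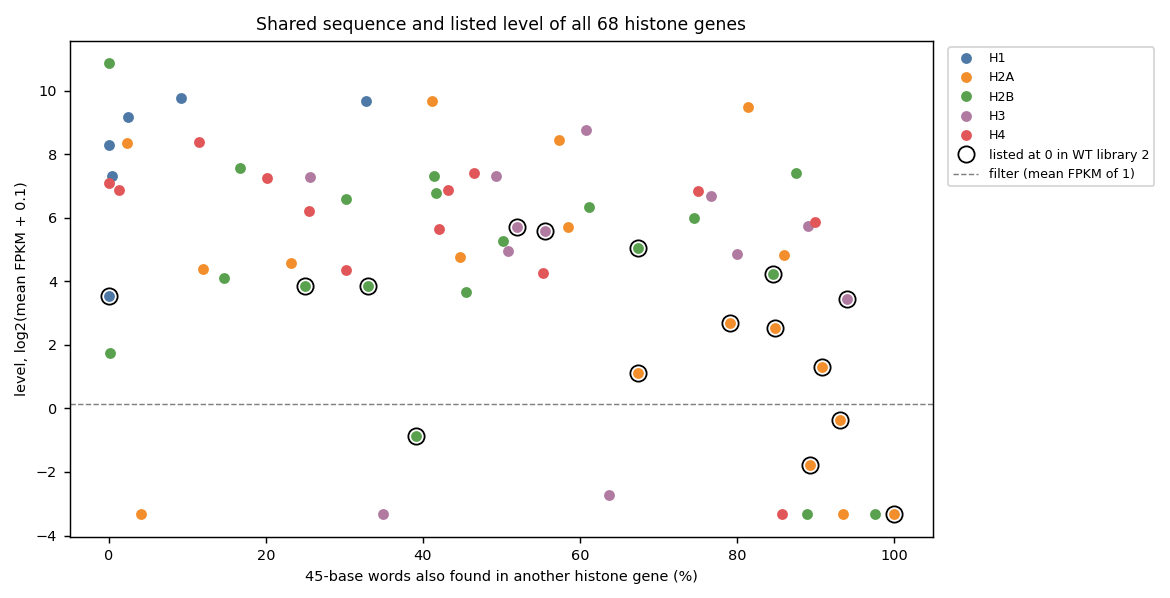
Share of each histone gene's 45-base words that occur in another histone gene (horizontal axis, in percent) against its level, log2(mean FPKM + 0.1) over 6 libraries (vertical axis), coloured by class, with rings around genes listed at 0 in WT2 but not in all libraries. The rings lie mostly to the right, where 16 of the 33 genes with 50% or more shared words were at 0 in WT2, counting those at 0 in all libraries. In each other library, 6 to 9 of these 33 genes and 2 to 3 of the 35 others were at 0.

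By place, the 6 tested genes of the chromosome 3 cluster all had lower values in KO, as did 5748 of all 12955 tested genes. The cluster's median log2 fold change was -0.57, and -0.77 to -0.46 with 1 library left out at a time. Without KO1, with the length trend removed, or without WT1 and KO2, 5 of the 6 were lower and 1 higher. Of the 6 genes, Hist2h2bb had a log2 fold change of -0.32 and Hist2h2ac and Hist2h2ab the values above. The median over 47 tested Hist1h genes was 0.013, and -0.45 without WT2. The 3 Hist3h genes had higher values in KO, and in 2 of them WT2 was at 0. Their median was 2.61, and 0.26 without WT2. It depended on the pseudocount, at 1.53 with a pseudocount of 1 and 3.72 with 0.01. Genes with the stem-loop letters had a median of 0.013 (37 tested) and genes without them -0.18 (20 tested). Where the model ran over 100 bases past the stem-loop the median was -0.053 (20 tested), and where it ended sooner 0.20 (17 tested). Without WT2 the last 4 medians were -0.39, -0.61, -0.35 and -0.45.

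The genes that make and handle histone mRNA were listed as a group of 18, of which 16 were tested. None passed the adjusted threshold, and the median log2 fold change was 0.079. At an unadjusted p of 0.05 in limma, 2 were lower and 0 higher, beside 4.97% and 3.31% of all tested genes. Slbp, which binds the stem-loop, was listed at 38.0, 40.4 and 40.5 FPKM in WT and at 34.4, 30.6 and 26.2 FPKM in KO. The groups did not overlap, with a log2 fold change of -0.39 and a standard error of 0.18 (adjusted p = 0.611 in limma). Srrt, a partner of the cap-binding complex, and Cpsf3, the nuclease that cuts histone pre-mRNA, differed by 0.12 and 0.17 on the log2 scale, with overlapping groups. Ncbp1, the large cap-binding subunit, differed by 0.22. The 2 lower genes, named after their values were seen, were Ncbp2, the small cap-binding subunit, and Hinfp, a transcription factor of H4 genes, at log2 fold changes of -0.79 and -0.88 without overlap. Pou2f1, also named after its values were seen, was higher without overlap, at 0.61. Of the 16 tested genes, 3 were lower and 1 higher without overlap, beside 7.84% and 8.21% of all tested genes. The U7 RNA gene Rnu7 was listed at 0 in all libraries.

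Histones made outside S phase gave a median near 0. Among 11 replication-independent histone genes the median log2 fold change was -0.11. At an unadjusted p of 0.05 in limma, 1 was lower and 1 higher, beside 4.97% and 3.31% of all tested genes. The higher one was H2afz, which encodes the variant H2A.Z, at 142, 162 and 114 FPKM in WT and 238, 200 and 186 FPKM in KO. Its groups did not overlap, with a log2 fold change of 0.58 and a standard error of 0.19 (adjusted p = 0.545 in limma). The H3.3 genes H3f3a and H3f3b differed by 0.28 and -0.26 on the log2 scale, and H1f0, the H1 of resting cells, by -0.11. The last 3 had overlapping groups.

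Of 14 histone chaperones, which carry histones to DNA, 12 had lower values in KO and the median log2 fold change was -0.24, with 0 at an unadjusted p of 0.05 in limma. Of all 12955 tested genes, 5748 had lower values. The groups did not overlap for 4 of the chaperones, all lower, where 7.84% of all tested genes had this pattern. Nap1l1, an H2A-H2B chaperone, was listed at 231, 249 and 292 FPKM in WT and at 210, 206 and 192 FPKM in KO. Ssrp1 and Supt16, the subunits of the FACT complex, had log2 fold changes of -0.37 and -0.30. The 2 groups lay apart in both, while those of Rbbp7 overlapped.

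The proliferation genes gave medians near 0. Over 37 genes of DNA replication and S phase the median was -0.019, with 1 lower and 1 higher at an unadjusted p of 0.05. The 24 genes of G2 and mitosis had a median of 0.060, again with 1 lower and 1 higher. Of all tested genes, 4.97% were lower and 3.31% higher at that p in limma. Pcna, the sliding clamp of DNA polymerase, was listed at 64.6, 87.8 and 82.8 FPKM in WT and at 85.9, 88.4 and 100.5 FPKM in KO. Mki67, the gene of the Ki67 proliferation antigen, was at 195, 187 and 137 FPKM in WT and at 201, 162 and 212 FPKM in KO. The groups overlapped in both genes, and those of Rrm1, Mcm7, Mcm6, Top2a, Prc1 and Nusap1 overlapped as well.

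Set side by side by library, the lists did not have the same range. A score was taken as the median over a list's tested genes of the deviation from each gene's own mean, on the log2(FPKM + 0.1) scale. For the histone genes it was 0.52, 0.36 and -0.39 in WT0 to WT2 and 0.31, -0.13 and -0.090 in KO0 to KO2. For the S phase genes it was 0.023, 0.056 and -0.046 in WT and 0.069, -0.12 and 0.069 in KO. For the mitosis genes it was 0.16, 0.013 and -0.18 in WT and 0.33, -0.14 and 0.047 in KO. WT2 was the lowest WT library and KO0 among the highest KO libraries in all 3 lists, while WT0 was the highest of all 6 libraries for the histone genes only. With 6 libraries, no relation between these scores was tested.

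**Figure D4:**
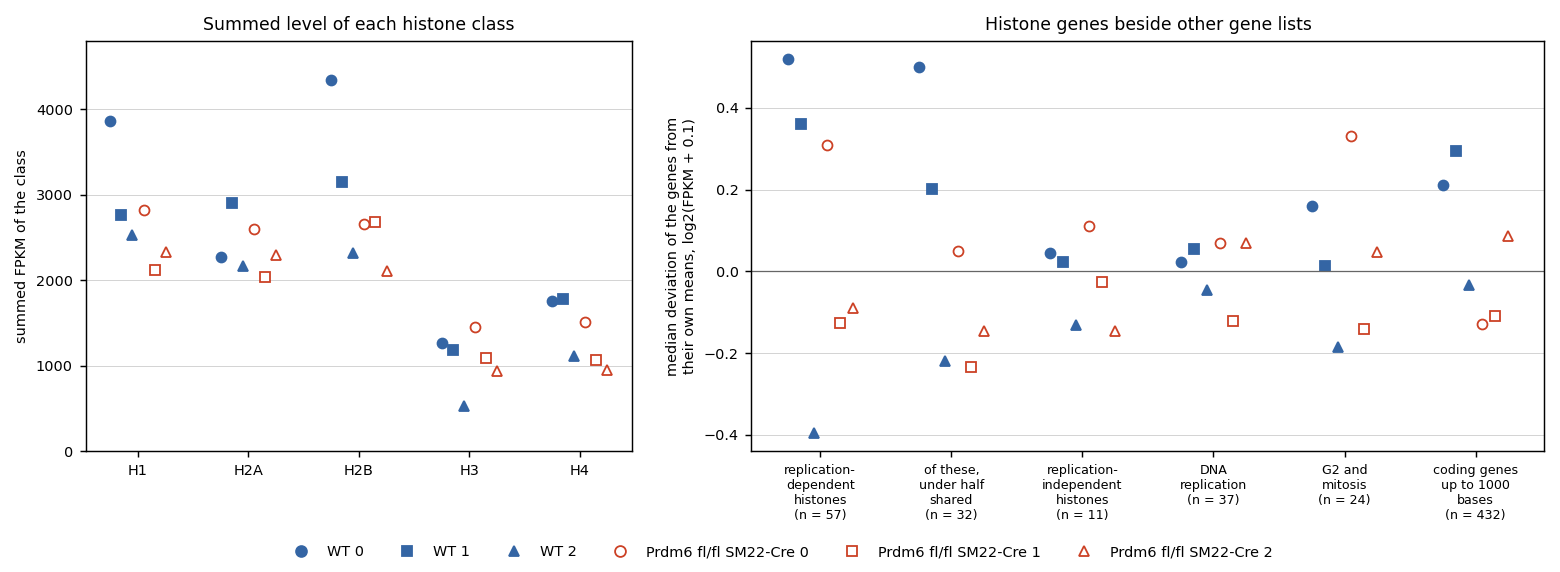
Left, summed FPKM of all genes of each histone class in each WT (filled) and Prdm6 fl/fl SM22-Cre (open) library; right, the median deviation of each list's tested genes from their own means, log2(FPKM + 0.1). Histone scores span -0.39 to 0.52 over the 6 libraries and S phase scores -0.12 to 0.069, and the groups overlap in every class sum and in all 6 lists shown.

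Short transcripts as a whole were set beside the histone genes. Among 432 tested coding genes of up to 1000 bases that are not histone genes, 15.7% were lower at an unadjusted p of 0.05 in limma and 2.31% were higher, with a median log2 fold change of -0.19. The share of histone genes that were lower, 12.3%, lay between this and the 4.97% of all genes. The longest models of the tested histone genes ran from 312 to 7425 bases, so not all are that short. For longer coding genes the median was 0.0055 for those over 1000 and up to 2000 bases, 0.032 up to 4000 bases and 0.11 above 4000 bases. When each library's trend with transcript length was removed, 2 histone genes were lower and 2 higher at an unadjusted p of 0.05, and the median was 0.22. In that fit 4.81% of all genes were lower and 3.15% higher, with a median of 0.048.

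Small noncoding RNAs were the least steady class. For the 95 tested small RNA genes the median difference was 0.98 on the log2 scale and the median standard error 3.15. Rpph1, the RNA of ribonuclease P, was listed at 19988, 20653 and 21761 FPKM in WT and at 12602, 17390 and 10429 FPKM in KO. Rmrp, the RNA of ribonuclease MRP, was at 3377, 3767 and 3723 FPKM in WT and at 2508, 2386 and 2241 FPKM in KO. Both had lower KO values without overlap, with adjusted p of 0.726 and 0.601 in limma. Terc, the telomerase RNA, and Vaultrc5, a vault RNA, had differences of 0.46 and 0.15 on the log2 scale, with overlapping groups. Of the FPKM outside small RNAs and Rn45s, histone genes made up 3.52%, 3.15% and 2.27% in WT and 2.996%, 2.43% and 2.56% in KO, with overlapping groups. Rn45s was above 0 in the KO libraries only, so leaving it out changed only the KO shares. The part of transcript length and of small RNA content in the histone values was not tested.

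Marker transcripts of several cell types also differed in level between libraries. In bulk tissue, fewer cells of a type and less RNA per cell cannot be told apart. Among 11 smooth muscle markers 6 were lower at an unadjusted p of 0.05 in limma, with sums of 2554 to 5892 FPKM in WT and 948 to 2462 FPKM in KO. Of all tested genes, 4.97% were lower and 3.31% higher at that p. Of 11 Schwann cell markers 6 were higher, with sums of 27.1 to 45.2 FPKM in WT and 58.99 to 193 FPKM in KO. Of 8 tested neuron markers 3 were higher, with list sums of 20.1 to 41.4 and 43.4 to 88.5 FPKM. Of 8 tested erythroid markers 3 were higher, with list sums of 3881 to 7601 FPKM in WT and 4309 to 24409 FPKM in KO. The 12 tested heart muscle markers and the 10 tested macrophage and leukocyte markers had 0 in either direction. Without WT1 and KO2, the libraries high in heart muscle transcripts, 4 histone genes were lower and 2 higher at an unadjusted p of 0.05, beside 3.61% and 2.59% of all genes. The part of these cells in the histone values was not tested.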

How the data were processed

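RNA from the DA of E17.5 embryos was sequenced in 6 libraries, 3 per group, grouped and numbered by their titles. The authors kept reads of at least 45 bases after quality trimming. TopHat2 placed them on mm10, and Cufflinks and Cuffdiff gave the deposited FPKM, a single value for each gene in each library. Versions, annotation and scaling are not given in the sources used here. Each column matched 1 library by name, and 0 were left unmatched. FPKM values carry no counts, so depth is unknown and no counting interval was computed. Cuffdiff needs aligned reads and was not repeated.

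The deposited FPKM values were taken as log2(FPKM + 0.1). This draws the fold changes of low genes towards 0. Where a library was listed at 0, the fold change depends on the 0.1 added and can exceed the ratio of the mean levels. Genes with a mean of at least 1 FPKM entered limma 3.58.1 (R 4.3.3), with eBayes and its intensity trend, a two-sided test, Benjamini-Hochberg adjustment over all tested genes and a threshold of 0.05, a step that was tested on simulated data. Single genes were also compared by exact permutation tests. Stem-loops and shared words came from GENCODE vM21 transcripts, which may differ from the authors' models. Small RNA genes were taken by symbol and annotated type.

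Named genes were the 3 most abundant members of each class, members whose groups did not overlap (up to 5 in each direction), members at 0 in every library, testis-specific members, and up to 4 abundant genes of each list. The members and lists were chosen with earlier results of these data known. Alternatives were other pseudocounts (1 and 0.01), filters (0.1, 5 or none), scalings, a fit without the trend, a replicate block, removal of the length trend, and leaving out libraries.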

Additional observations from a re-analysis of the deposited data

How the results depend on the processing

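No alternative called a histone gene in limma, and the lowest adjusted p of a named member was 0.234. Over 17 named tested members and 306 fits, 295 kept their direction, and 11 members kept it in every fit. Hist1h4d, Hist2h2ab, Hist2h2ac and Hist1h2be were among the 11. The groups of these 4 genes did not overlap, so leaving out libraries could not turn their direction. Leaving out 1 library at a time gave 2 to 14 lower and 0 to 5 higher genes at an unadjusted p of 0.05, 5 to 20 lower and 0 to 5 higher genes without overlap, and medians of -0.45 to 0.096. Of all genes in those fits, 3.83% to 4.79% were lower at that p and 11.4% to 13.6% were lower without overlap. In the other direction the shares were 1.36% to 5.18% and 12.6% to 15.3%. Scaling to all genes, which moved the median of all genes to -0.30, gave 13 and 0 at an unadjusted p of 0.05 and 11 lower without overlap, beside 7.05%, 0.961% and 11.8% of all genes. Scaling to genes other than small RNAs, Rn45s and histone genes gave 3 lower, beside 3.66% of all genes. Quantile normalization gave 2 higher, beside 3.75%. A filter of 5 FPKM gave 0 higher, beside 3.16%, and the fit without the trend 2 and 0, beside 3.57% and 3.68%. With the length trend removed there were 2 and 2, beside 4.81% and 3.15% of all genes. Without overlap, 1 was then lower and 3 higher, beside 8.28% and 7.59%. With the replicate block there were 10 and 3, beside 5.23% and 3.40%. Correlations of the deviations were -0.0761 to 0.122 between same-numbered libraries and -0.12 to 0.144 between the others. Whether the numbers pair the libraries cannot be told from these values. Added after the data were seen were a fit that left out WT1 and KO2, both high in heart muscle (4 and 2, and 12 and 3 without overlap, beside 17.9% and 20.1% of all genes) and the members with under 50% of words shared (median -0.40). The direction turned for Hist1h1c with quantile normalization (0.037), without the length trend (0.010) and over the libraries left out (-0.26 to 0.096), and on scaling to all genes for Hist1h3c (-0.17) and Hist1h4h (-0.36). Leaving out libraries gave -0.62 to 0.43 for Hist1h4h, -0.23 to 1.74 for Hist1h2af, -0.043 to 0.92 for Hist1h3b and -0.87 to 3.23 for Hist1h1t. The cause was not tested. Unknown depth and 3 libraries per group limit what could be seen.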
